A study of Mus musculus with 38 samples.

Results

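The libraries described here come from the small intestinal epithelium of vitamin D deficient mice that received vehicle and no hormone: 6 libraries of crypts and 6 of villi, 12 of the 38 samples in the series. They were chosen by their labels alone, as the vehicle columns of the crypt and villus expression tables. Every mouse was wild type, of the C57BL6/J strain and vitamin D deficient, and received 0.1 ml of propylene glycol with ethanol (9:1) into the peritoneum before being killed 4 h later. Ages were 10 to 13.3 weeks by the sample labels and 12 to 14 weeks by the protocol, and the labels give the sex as pooled male and female. Epithelium came from 10 to 15 cm of proximal small intestine, loosened with 3 mM EDTA and split into villi and crypts with a 70 µm filter. The remaining samples are crypts and villi of mice given 1,25-dihydroxyvitamin D, the active hormone (10 ng/g), and colon. How many mice a library holds is not stated, so p-values reflect only how these libraries spread, which may be technical.

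The intestinal epithelium renews itself from stem cells at the crypt base, which sit among Paneth cells under Wnt signalling. Their daughters divide in the crypt, stop dividing at its mouth and become absorptive enterocytes, mucus-secreting goblet cells, hormone-secreting enteroendocrine cells or tuft cells as they move up the villus, where they are shed at the tip. Calcium absorption by enterocytes is the best known intestinal task of vitamin D. These libraries show the crypt to villus axis without injected hormone.

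The values are FPKM (fragments per kilobase of transcript, relative to library size), and the crypt and villus tables were scaled separately. Each column was therefore centred on its median log2(FPKM + 0.5) over 9519 genes that averaged at least 1 FPKM in crypts and in villi alike. Levels below are given as rescaled FPKM, deposited FPKM multiplied by the factor that gives every column the same centre (1.175 to 1.249 in villi, 0.808 to 0.859 in crypts). Differences are on the log2(FPKM + 0.5) scale, crypts minus villi, with a standard error (SE). Folds are these differences turned back from log2, not ratios of the levels given. They can fall well below such ratios where levels are low. A gene was called when its adjusted p was under 0.05 in limma, a linear model fitted across all genes, among the 10433 genes with 1 FPKM or more in at least 6 libraries.

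Setting the FPKM beside the authors' mean levels gave estimated depths of 15.5 to 17.4 M reads per library. Epithelial genes were high in both fractions: Epcam ran from 891.9 to 1409 rescaled FPKM in villi and from 632.8 to 975.6 in crypts. Collagen Col1a1 did not exceed 0.0743 and the pancreatic gene Prss1 was listed at 0 throughout. Each fraction also held RNA of genes typical of the other. Lyz1, a Paneth cell product, ran from 27.6 to 1183 in villi, highest in villi 4, and the enterocyte gene Apoa4 reached 8452 and 9250 in crypts 5 and 6 against 453.2 to 2910 in crypts 1 to 4. Crypts 5 and 6, whose names in the sample labels are spelled with hyphens, were also the crypt libraries nearest to villi over all tested genes (mean correlation 0.912 and 0.926), and crypts 4 was the farthest (0.79). List counts without crypts 5 and 6 are given where they differ. In the names of villi 5 and 6 a number comes before the group. Cyp24a1, a gene strongly induced by the hormone, stood apart in a pair of vehicle libraries: it was at 77.5 in villi 6 (other villi 0.0685 to 1.56) and at 6.0 in crypts 5 (other crypts 0.149 to 0.758). Both libraries are labelled as vehicle alone. Their values were below those of every hormone-treated library, 2283 to 5482 in villi and 2125 to 3723 in crypts. Why these 2 differ from the other vehicle libraries was not tested. Against the label of pooled sexes, Xist and Ddx3y showed a single-sex pattern in each library, female in 3 of 6 villi and 5 of 6 crypts; with this pattern as a covariate 3520 genes were called higher in crypts and 3748 lower. In such bulk samples, fewer cells of a type and less RNA per cell cannot be told apart.

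Crypts and villi differed in 6789 of 10433 genes, which is 65.1% of those tested. Of these, 3272 (31.4%) were higher in crypts and 3517 (33.7%) were lower. Called differences of at least 2-fold numbered 1484 higher in crypts (14.2%) and 1099 lower (10.5%). In 2451 genes (23.5%) every crypt library lay above every villus library, and in 1720 (16.5%) every crypt library lay below. Genes of Paneth cells, stem cells, mitosis and ribosome production were higher in crypts, whereas genes of digestion, nutrient uptake, antigen presentation and interferon response were lower. The median over all genes was -0.04. Without crypts 5 and 6, 6921 genes (66.3%) were called, 3418 higher (32.8%) and 3503 lower (33.6%). Without villi 6 and crypts 5, an alternative chosen after seeing the data, 6494 were called (62.2%), 3232 higher (31.0%) and 3262 lower (31.3%).

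The direction of a small difference depends on how the tables are brought together. As deposited, with no centring, the median over all genes was 0.49 and 5945 genes were called higher against 1039 lower. With columns scaled to equal sums it was 0.35, with 4895 higher and 1713 lower, and with centring on genes of 10 FPKM or more it was 0.21, with 4377 higher and 2297 lower. Centring on ribosomal protein genes moved the median to -1.77, with 246 higher and 9185 lower. Differences below are relative to the median gene, and a list whose median changes sign under a scaling has that median beside its counts. Goblet cell, enteroendocrine, tuft cell, transcription factor, keratin and cholesterol lists had medians within 0.1 of 0 whose sign changed with the scaling. List counts are to be read against the shares of all genes, 31.4% higher and 33.7% lower. Where nothing is said of it, at most 2 tested members of a list had a mean under 1 FPKM in villi and at most 1 in crypts. A member under 1 FPKM in villi needed crypt libraries to pass the filter, so its direction was partly set by the filter. This held for Lgr5, Ascl2, Cd44, Ephb3, Myc, Ttk, Cdkn2c, Neurog3, Pou2f3, Notch1, Bmp7, Smo, Slc7a5, Slc41a1 and Pkp1. Counts that include such members describe only those that passed.

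**Figure D1:**
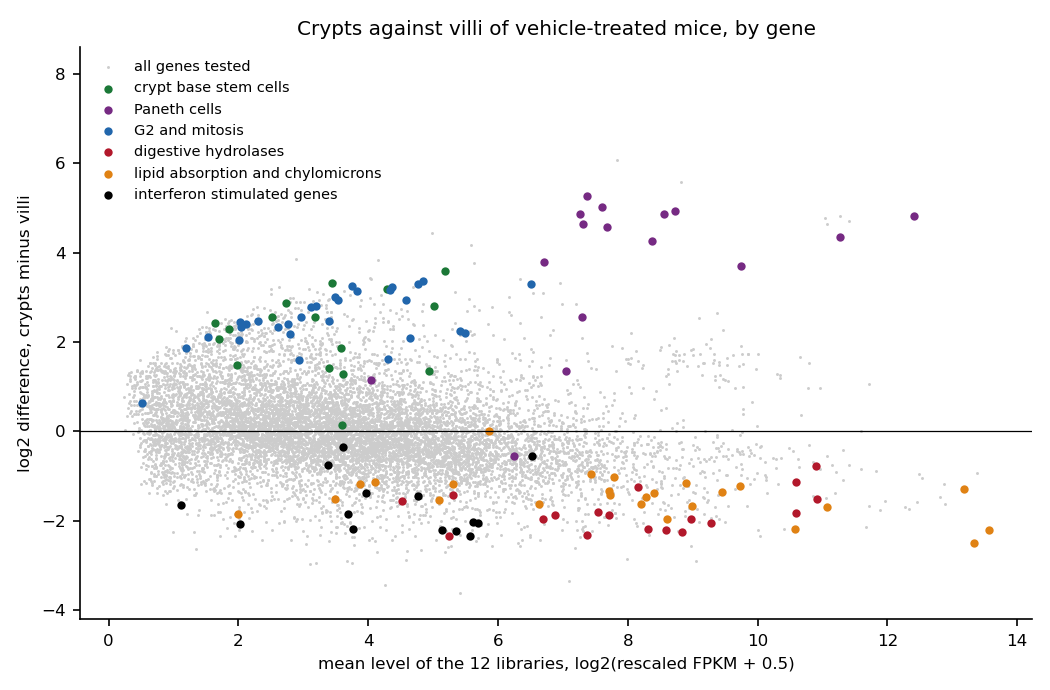
Log2 difference between crypts and villi (vertical axis) against the mean level of the 12 vehicle libraries, log2(rescaled FPKM + 0.5) (horizontal axis). Grey points are the 10433 genes tested, coloured points are members of 6 gene lists. Paneth cell genes stand highest, with a median of 4.47, and interferon stimulated and digestive hydrolase genes have medians of -1.93 and -1.88.

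Stem cell genes were higher in crypts. Of 21 crypt base stem cell genes 20 were matched and 16 tested, and 15 of these were higher with none lower (median 2.36, also 15 of 16 without crypts 5 and 6). Of those tested, 5 had a mean under 1 FPKM in villi and passed the filter through crypts, so this count describes only the members that passed. Lgr5, Ascl2, Cd44 and Ephb3 were among them, so the filter partly set their direction. Lgr5, the R-spondin receptor that marks crypt base stem cells, ran from 0.0682 to 0.902 (median 0.392) in villi and from 2.76 to 6.21 (median 5.1) in crypts. The groups did not overlap, and the log2 difference was 2.42 ± 0.22 (SE; limma adjusted p = 1.38e-05). Ascl2, a transcription factor of Lgr5 cells, ran from 0 to 2.9 (median 0.939) in villi and from 5.17 to 19.4 (median 10.8) in crypts, again with no overlap. The difference was 2.88 ± 0.44 (limma adjusted p = 0.000124). Sox9, active at the crypt base, ran from 0.955 to 3.06 (median 2.21) in villi and from 11.4 to 18.6 (median 15) in crypts, and Cd44, a hyaluronan receptor, from 0.439 to 1.86 (median 0.999) and from 7.48 to 10.9 (median 9.6). Both were 5.94-fold higher in crypts, with no overlap. Reserve stem cell markers, a looser group, had 3 of 4 tested higher (median 0.77, but -0.96 with centring on ribosomal protein genes). Lrig1, which restrains EGF receptors, ran from 2.68 to 7.54 (median 4.44) in villi and from 12.4 to 21.3 (median 19.1) in crypts (3.65-fold higher). Olfm4 and the defensin Defa24 were not matched and have no value here.

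Genes of the Wnt pathway, which maintains the stem cells, split. Of 25 members 13 were tested, 7 were higher in crypts and 3 lower (2 without crypts 5 and 6), with a median of 0.63 that fell to -1.09 with centring on ribosomal protein genes. Of those tested, 3 had a mean under 1 FPKM in villi. Myc, a growth-promoting transcription factor, ran from 0.279 to 1.78 (median 1.08) in villi and from 9.18 to 19.3 (median 11) in crypts, 7.95-fold higher and without overlap. The cyclins Ccnd1 and Ccnd2, which start the cell cycle, were 7.02-fold and 4.36-fold higher. Lgr4, a second R-spondin receptor, differed less: from 13.2 to 18.1 (median 15.3) in villi and from 24.8 to 33.3 (median 27.9) in crypts (1.77-fold, limma adjusted p = 3.71e-05). Sp5, also known as a Wnt target, went the other way, from 23.9 to 28.2 (median 26.9) in villi and from 4.49 to 14.5 (median 9.53) in crypts. Its log2 difference was -1.47 ± 0.22 (limma adjusted p = 0.000107). Ctnnb1, which encodes beta-catenin, was 1.36-fold lower in crypts (-0.44 ± 0.10), a direction that turned to 0.09 without centring. Tcf7l2, a partner of beta-catenin, ran from 2.13 to 14 (median 3.77) in villi and from 1.22 to 3.46 (median 2.28) in crypts with overlap. Its difference of -0.99 ± 0.40 (limma adjusted p = 0.0431) lost the call in 7 of the 12 fits that leave out a library (without villi 4, 5 or 6, or without crypts 1, 2, 3 or 5, limma adjusted p at most 0.0899), without crypts 5 and 6 (0.0785) and without villi 6 and crypts 5 (0.163).

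**Figure D2:**
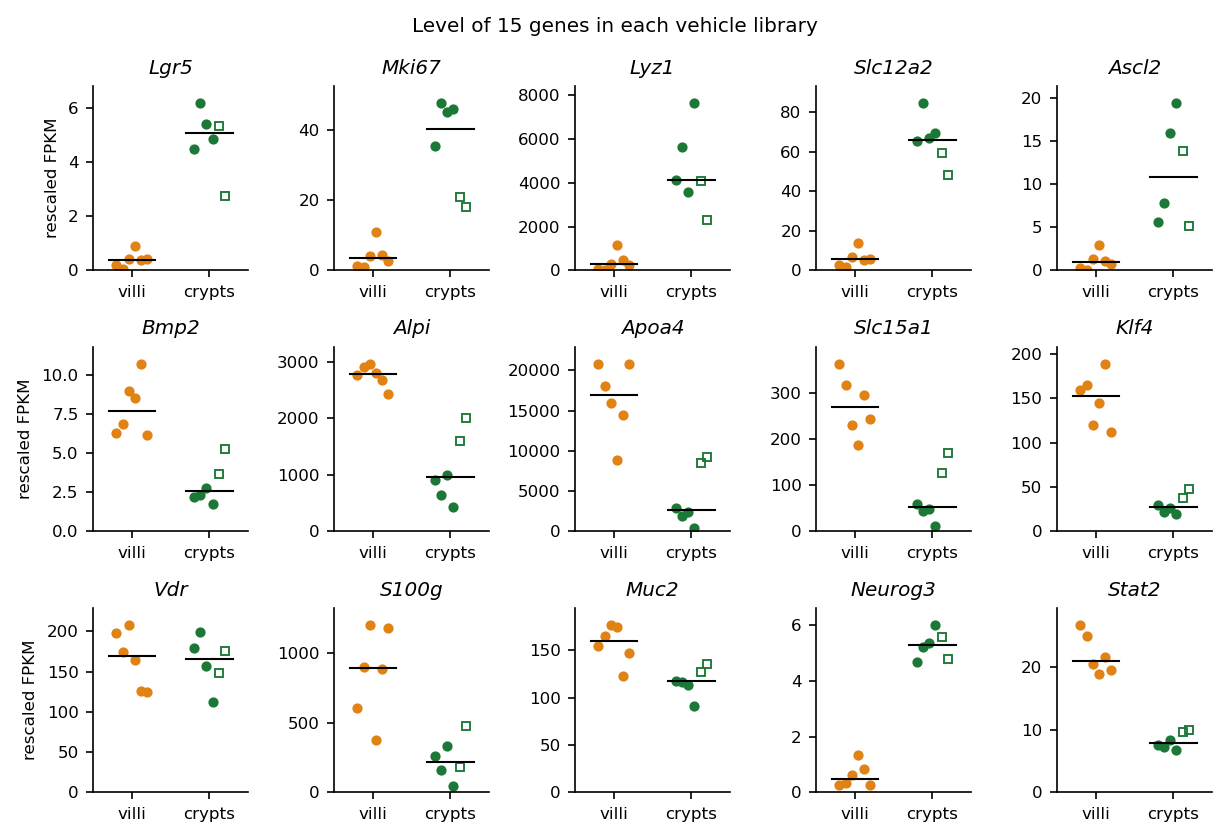
Rescaled FPKM (vertical axes, each from 0) of 15 genes in the vehicle libraries, 6 of villi (orange) and 6 of crypts (green). Open squares are crypts 5 and 6, and lines are medians. Lgr5, Mki67, Lyz1, Slc12a2, Ascl2 and Neurog3 do not overlap upwards in crypts, Apoa4, S100g and Muc2 overlap, and Vdr has medians of 169 and 166.

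Proliferation genes were higher in crypts almost throughout. Of 33 genes of DNA replication and the G1 to S transition 32 were tested, 30 were higher and 1 lower (median 2.01), and of 30 genes of G2 and mitosis 29 were higher and none lower (median 2.45). Without crypts 5 and 6 these counts were 30 and 30. Of the tested members, 5 and 8 had a mean under 1 FPKM in villi and needed crypt libraries to pass the filter. Mki67, a nuclear protein of dividing cells, ran from 0.942 to 10.8 (median 3.44) in villi and from 18.1 to 47.6 (median 40.2) in crypts. The highest villus value belonged to villi 4 and the lowest crypt values to crypts 5 and 6, with no overlap (3.17 ± 0.44, limma adjusted p = 7.4e-05). Mcm7 and Mcm6, subunits of the replicative helicase, ran from 3.49 to 9.53 (median 5.03) and from 4.22 to 12.2 (median 8.49) in villi and from 24.4 to 45.6 (median 31.6) and from 27 to 43 (median 30.6) in crypts. They were 5.5-fold and 4.08-fold higher in crypts, and Mcm2, another subunit, 6.4-fold. The mitotic kinases Plk1 and Ttk were 4.26-fold and 5.44-fold higher, and Ttk ran from 0.142 to 1.48 (median 0.692) in villi and from 4.16 to 8.64 (median 6.45) in crypts.

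Genes that end proliferation were mixed. Of 14 tested inhibitors and exit genes 6 were lower in crypts and 1 higher, with a median of -0.65, and 7 were not called. The count lower was 8 without crypts 5 and 6 and 5 to 7 without any single library. The share lower is not far above that of all genes (33.7%). Mxd1, which opposes Myc, ran from 177 to 307 (median 225) in villi and from 17.9 to 135 (median 48) in crypts, and crypts 6 gave the highest crypt value. It was 4.6-fold lower in crypts. Mxi1, of the same family, was 3.55-fold lower, and Cdkn1a, the p21 inhibitor of cyclin-dependent kinases, 2.86-fold (-1.52 ± 0.23). None of the 3 overlapped. Cdkn2c was the member that was higher in crypts, from 0.475 to 1.6 (median 1.41) in villi and from 1.89 to 3.8 (median 2.29) in crypts (0.75 ± 0.21, limma adjusted p = 0.00741).

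Promoter sequence gives context to genes that moved together. RefSeq promoter windows (GRCm38.p6), 250 bases before the start site, were matched by symbol, and short motifs were searched on both strands. CCAAT occurred in 22 of 26 windows of the G2 and mitosis genes (84.6%), in 33.8% of all 32851 windows and in 36.2% of the windows of tested genes. TTTGAA occurred in 8 of the 26 (30.8%), in 16% of all windows and in 10.6% of those of tested genes. TTGGCGC, an E2F-type motif, occurred in 4 of 32 windows of the replication genes (12.5%), in 1.97% of all windows and in 3.73% of those of tested genes, and TTCCCGC in 7 of 32 (21.9%), 3.82% and 6.98%. Some genes have several windows. The windows shown belong to the called member with the smallest p whose last 150 bases before the start hold the motif, printed 5′ to 3′ on the gene's strand. Windows on a single chromosome were left out of this choice, so a member there with a smaller p would not be shown. Capitals mark CCAAT in Ttk (chr9:83834539-83834688, plus strand) and TTGGCGC in Mcm6 (chr1:128359706-128359855, minus strand). A match is a description of the letters and no evidence of a bound site.
Ttk: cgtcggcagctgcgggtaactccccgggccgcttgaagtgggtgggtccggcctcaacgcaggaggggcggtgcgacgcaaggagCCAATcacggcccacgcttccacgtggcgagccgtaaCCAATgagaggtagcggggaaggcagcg
Mcm6: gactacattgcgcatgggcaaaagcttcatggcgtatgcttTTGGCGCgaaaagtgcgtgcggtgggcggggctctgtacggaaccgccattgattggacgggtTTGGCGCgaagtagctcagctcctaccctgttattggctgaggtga

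Machinery for making ribosomes and processing RNA was higher in crypts. All 29 tested ribosome biogenesis genes were called higher (median 2.04, 29 of 29 without crypts 5 and 6), 5 of them with a mean under 1 FPKM in villi. These 5 needed crypt libraries to pass the filter. Npm1 and Ncl, nucleolar proteins of ribosome assembly, were 4.26-fold and 4.11-fold higher; Npm1 ran from 36.6 to 83.5 (median 60.7) in villi and from 201 to 338 (median 237) in crypts. All 43 tested cytosolic ribosomal protein genes were higher (median 1.58), 42 without crypts 5 and 6. That median is -0.14 when the columns are centred on these genes themselves. Rpl5, of the large subunit, ran from 60.7 to 154 (median 105) in villi and from 294 to 466 (median 357) in crypts (3.63-fold), and Rps6, of the small subunit, from 126 to 315 (median 222) and from 570.4 to 914 (median 668) (3.34-fold). Neither overlapped. Ribosomal protein genes have many pseudogenes, so their counts are uncertain. CCGGAAG, an ETS-type motif, occurred in 10 of 36 ribosomal protein windows (27.8%), 6.91% of all and 14.4% of those of tested genes, and CACGTG, the E-box, in 1 of 27 ribosome biogenesis windows (3.7%), 6.02% of all and 8.65% of those of tested genes. Of 25 splicing and RNA export genes 24 were higher (median 1.16, -0.57 with centring on ribosomal protein genes), including Sf3b3 at 2.85-fold. All 21 tested DNA repair genes were higher (median 1.58, -0.14 with that centring), 13 of them with a mean under 1 FPKM in villi. These 13 needed crypt libraries to pass the filter, so their direction was largely set by it and the count describes only the members that passed. Parp1, a sensor of DNA breaks, was 5.47-fold higher.

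Paneth cells, which secrete antimicrobial proteins at the crypt base, gave the largest differences. Of 23 members 19 were matched and 16 tested, and 15 were higher in crypts with none lower (median 4.47), as without crypts 5 and 6, where 1 was also lower; 1 was lower too without villi 4, crypts 5 or crypts 6 alone. Leaving out predicted genes and accession-style names, the 12 largest differences towards crypts were all Paneth cell products: 10 defensin or defensin-related genes, Lyz1 and Ang4, an angiogenin with antimicrobial action. Lyz1, lysozyme, ran from 27.6 to 1183 (median 279) in villi and from 2288 to 7666 (median 4116) in crypts, 20.5-fold higher with no overlap (4.36 ± 0.74, limma adjusted p = 0.000255). Defa17, an alpha-defensin, ran from 31.4 to 1949 (median 523) in villi and from 6009 to 14140 (median 10110) in crypts (4.81 ± 0.81). Defa-rs7, related to the defensins, had the largest difference of the named genes, from 0.326 to 158 (median 39.8) in villi and from 406 to 1451 (median 777) in crypts (5.58 ± 1.22, limma adjusted p = 0.00147). The villus levels of these genes spread widely, and for both Lyz1 and Defa-rs7 villi 2 was lowest and villi 4 highest. Alpha-defensin genes are near-identical copies, so the reads of each are uncertain. Itln1, a lectin, was 13.1-fold higher, Clps, colipase, 5.94-fold, and the surface protein Cd24a 2.57-fold.

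Genes of the remaining secretory lineages took both directions. Goblet cell genes had 7 members higher (8 without crypts 5 and 6) and 7 lower of 20 tested (median 0.03). Both shares are near those of all genes (31.4% higher and 33.7% lower). Spdef and Creb3l1, transcription factors of goblet cells, were 1.65-fold and 2.07-fold higher in crypts without overlap; Spdef ran from 5.51 to 9.29 (median 6.35) in villi and from 9.48 to 13.4 (median 11.4) in crypts. Zg16, a mucus lectin, ran from 6624 to 9707 (median 7455) in villi and from 1676 to 3942 (median 2068) in crypts and was 3.32-fold lower in crypts (-1.73 ± 0.26), and Clca3, a secreted mucus component, was 2.97-fold lower. Muc2, the main gel-forming mucin, differed little: from 123 to 177 (median 160.4) in villi and from 90.8 to 136 (median 117) in crypts, with overlap. Its log2 difference was -0.42 ± 0.12 (limma adjusted p = 0.00708), and 0.11 without centring.

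Enteroendocrine genes also had 7 members higher (6 without crypts 5 and 6) and 7 lower of 20 tested (median -0.06), again near the shares of all genes. Neurog3, the factor that commits cells to this lineage, ran from 0.256 to 1.33 (median 0.483) in villi and from 4.65 to 6 (median 5.28) in crypts. No library overlapped, and the difference was 2.28 ± 0.19 (limma adjusted p = 1.22e-05). Its mean in villi was under 1 FPKM, so it needed crypt libraries to pass the filter, which partly set its direction. Hormone genes were split. Tac1, the tachykinin precursor, was 5.04-fold and Gcg, the glucagon precursor, 2.84-fold higher in crypts, whereas Sct, secretin, was 3.51-fold, Pyy 3.66-fold and Cck, cholecystokinin, 1.57-fold lower. Sct ran from 91.7 to 125 (median 100.4) in villi and from 16 to 53.6 (median 25.6) in crypts. Chga, a granule protein of most of these cells, ran from 37.9 to 67.4 (median 61.2) in villi and from 45.4 to 93.5 (median 68.9) in crypts and was not called. Its difference was 0.29 ± 0.18, with a 95% interval of -0.10 to 0.68 (limma adjusted p = 0.169). Tuft cell genes had 1 higher and 4 lower of 12 tested, 0 and 5 without crypts 5 and 6, 0 higher without villi 6 and crypts 5, and 2 higher without crypts 4. The 4 lower are a share near that of all genes (33.7%). Trpm5, their taste-type channel, was 1.71-fold lower in crypts. Pou2f3, their lineage factor, had a difference of 0.50 ± 0.17 that lost the call without crypts 5 and 6 (limma adjusted p = 0.0539) and without villi 6 and crypts 5 (0.0864), and Dclk1, their marker kinase, was not called (0.18 ± 0.13, 95% interval -0.09 to 0.45).

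Signals that pattern the axis were described by role. In the Notch pathway, which keeps progenitors from the secretory fate, 7 of 12 tested genes were higher in crypts and 3 lower (median 0.69, -1.03 with centring on ribosomal protein genes), and 3 of those tested had a mean under 1 FPKM in villi. The receptor Notch1 ran from 0.536 to 1.69 (median 1.21) in villi and from 2.38 to 7.93 (median 5.62) in crypts (3.2-fold higher), and the target Hes1 from 5.57 to 20.9 (median 12.4) and from 33.5 to 46.2 (median 39.7) (3.5-fold). The ligands Dll4 and Dll1 were lower in crypts: Dll4 2-fold, and Dll1 1.3-fold with overlap (-0.38 ± 0.12, but 0.16 without centring). Atoh1, the secretory master factor that Hes1 represses, was not called, running from 8.65 to 12.4 (median 9.58) in villi, from 9.73 to 11.9 (median 10.6) in crypts and a difference of 0.08 ± 0.10 (95% interval -0.14 to 0.30).

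BMP signalling restrains proliferation on the villus, and 6 of 13 tested BMP and TGF beta genes were lower in crypts with 2 higher (median -0.74). The ligand Bmp2 ran from 6.13 to 10.7 (median 7.68) in villi and from 1.75 to 5.25 (median 2.55) in crypts, without overlap (-1.36 ± 0.22, limma adjusted p = 0.000188). The BMP targets Id1 and Smad7 were 2.31-fold and 2.73-fold lower in crypts. Against these, the ligand genes Bmp3 and Bmp7 were 5.33-fold and 3.03-fold higher in crypts; Bmp3 ran from 0.984 to 2.15 (median 1.34) in villi and from 5.4 to 17.1 (median 9.78) in crypts. Of the Hedgehog list, 2 of 10 members were tested (median 0.68, -1.05 with centring on ribosomal protein genes), 1 with a mean under 1 FPKM in villi: Ihh, the epithelial ligand, was 1.84-fold lower in crypts and Smo, the signal transducer, 4.68-fold higher. Smo ran from 0.0593 to 1.32 (median 0.305) in villi and from 2.53 to 6.01 (median 4.23) in crypts.

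Eph receptors and ephrins position cells along the axis, and 5 of 10 tested were higher in crypts and 3 lower (median 0.65, -1.07 with centring on ribosomal protein genes). Receptors Ephb2, Ephb3 and Ephb4 were 2.79-fold, 4.19-fold and 5.39-fold higher. Ephb2 ran from 0.906 to 2.89 (median 1.33) in villi and from 3.23 to 7.02 (median 5.42) in crypts, and Epha2, a receptor of the other class, was 2.88-fold lower. The ligand Efnb1 was not called (-0.18 ± 0.08, 95% interval -0.35 to 0.00). Of 12 EGF family genes 5 were lower in crypts and 1 higher (median -0.31, 0.23 without centring and 0.09 with columns scaled to equal sums); 2 were higher without villi 4 and 3 without crypts 4. The ligand Areg, amphiregulin, ran from 11.8 to 57.5 (median 18) in villi and from 1.35 to 3.56 (median 2.29) in crypts (7.67-fold lower), with villi 5 highest, and Hbegf was 2.87-fold lower.

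Of 28 regional and lineage transcription factors 6 were higher in crypts (7 without crypts 5 and 6) and 9 lower (median -0.05). The share lower is near that of all genes (33.7%). Klf4, a factor of differentiated cells, ran from 112 to 189 (median 152) in villi and from 19.1 to 47.5 (median 27.9) in crypts. The groups did not overlap (-2.32 ± 0.21, limma adjusted p = 1.41e-05). Maf was 2.91-fold lower in crypts, while Cdx1, a hindgut and midgut homeobox factor, and Nr5a2, a nuclear receptor, were 1.54-fold and 2.92-fold higher.

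**Figure D3:**
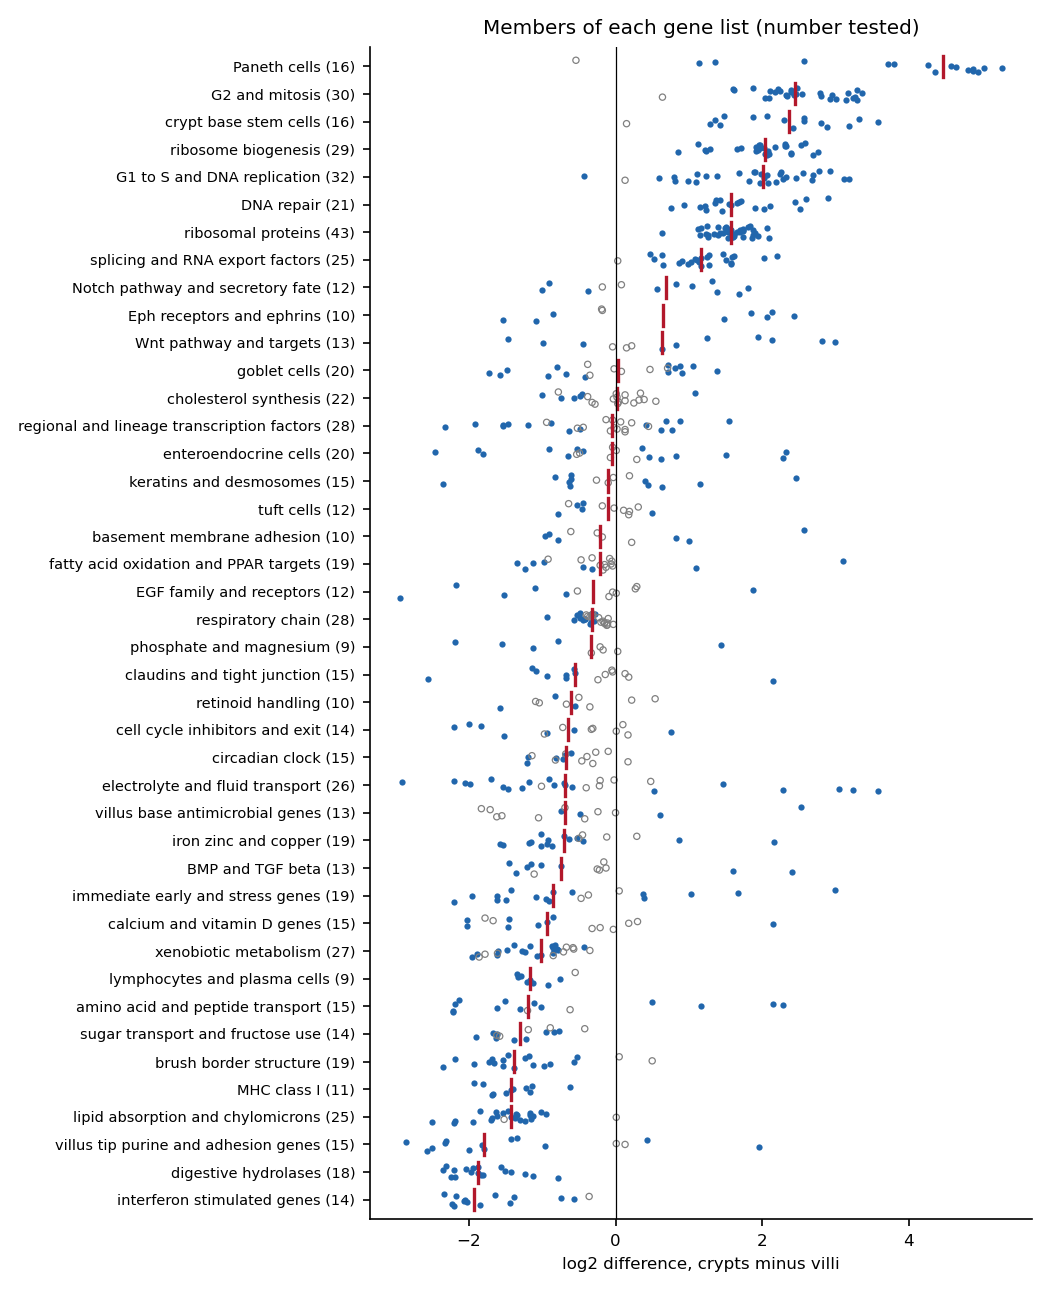
Log2 difference between crypts and villi (horizontal axis) of each tested member of the gene lists with 9 or more tested members (number tested in brackets). Filled points were called, open points were not, and red lines are medians. Lists run from interferon stimulated genes (median -1.93) to Paneth cell genes (median 4.47).

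The absorptive surface was lower in crypts in nearly all its parts. Of 19 brush border structure genes 17 were lower with none higher (median -1.39; 1 higher without crypts 5 and 6), of 18 tested digestive hydrolases all 18 (median -1.88, 18 without crypts 5 and 6), of 14 sugar transport genes 9 (median -1.30) and of 25 lipid absorption genes 23 (median -1.43). The last pair of counts was 11 and 24 without crypts 5 and 6. Espn, which bundles actin in microvilli, ran from 209 to 324 (median 239) in villi and from 17.1 to 112 (median 48.3) in crypts (5.15-fold lower), and Ezr, the microvillus linker ezrin, was 2.89-fold lower. Alpi, intestinal alkaline phosphatase, ran from 2429 to 2966 (median 2785) in villi and from 439 to 2006 (median 954) in crypts, where crypts 5 and 6 were highest. No library overlapped (-1.51 ± 0.32, limma adjusted p = 0.00107). The peptidases Anpep and Dpp4 were 3.55-fold and 3.5-fold lower in crypts. Sis, sucrase-isomaltase, differed least of those named: from 1551 to 3155 (median 2461) in villi and from 657 to 1671 (median 1544) in crypts, with overlap. The difference of -0.78 ± 0.26 (limma adjusted p = 0.019) was -0.25 and not called without centring (limma adjusted p = 0.448).

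Transporters are given by substrate. Slc5a1, the sodium-glucose transporter, ran from 2674 to 4188 (median 2997) in villi and from 462 to 2307 (median 1355) in crypts (2.6-fold lower), and Slc2a5, the fructose transporter, was 3.1-fold lower. Slc15a1, the peptide transporter, ran from 187 to 362 (median 268) in villi and from 12.1 to 169 (median 53.8) in crypts. The 2 highest crypt values were crypts 6 and 5, and the difference moved from -2.22 ± 0.50 to -2.90 without them. Amino acid transport divided, with 9 of 15 tested lower in crypts (10 without crypts 5 and 6) and 4 higher (median -1.20): Slc36a1, a proton-coupled carrier, was 4.57-fold lower, while Slc7a5 and Slc1a5, carriers that dividing cells use, were 4.44-fold and 4.9-fold higher. Slc7a5 had a mean under 1 FPKM in villi and passed the filter through crypts, which partly set its direction. Slc1a5 ran from 3.06 to 11.4 (median 7.25) in villi and from 26.8 to 43 (median 33.5) in crypts.

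For lipid handling, Apoa4, an apolipoprotein of chylomicrons, ran from 8842 to 20830 (median 16980) in villi and from 453 to 9250 (median 2685) in crypts. Crypts 6 exceeded villi 4, and the difference of -2.50 ± 0.62 (limma adjusted p = 0.00352) became -3.32 without crypts 5 and 6. Fabp1, a fatty acid carrier, also overlapped, running from 8507 to 16520 (median 12430) in villi and from 1792 to 11270 (median 5036) in crypts (-1.30 ± 0.42, limma adjusted p = 0.0146), and the call was lost without centring (-0.76) and with quantile normalization (-0.31). Npc1l1, the cholesterol uptake protein, was 3.08-fold lower in crypts with no overlap. Of 7 tested bile acid genes 6 were lower, Ostb, a subunit of the basolateral exporter, by 3.76-fold.

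CAAAGTC, a short form of the motif bound by HNF4-type receptors, occurred in 4 of 21 windows of the hydrolase genes (19.0%), in 1 of 24 of the lipid genes (4.17%), in 3.84% of all windows and in 3.41% of those of tested genes. Capitals mark it in the 150 bases before the start of Alpi (chr1:87101607-87101756, minus strand), chosen by the same rule as above.
Alpi: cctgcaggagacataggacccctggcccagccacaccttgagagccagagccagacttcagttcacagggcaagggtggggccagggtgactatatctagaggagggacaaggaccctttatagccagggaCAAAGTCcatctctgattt

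Genes reported at the villus tip were lower in crypts in 11 of 15 cases, with 2 higher (median -1.80). Enpp3, an ectoenzyme that splits nucleotides, ran from 273 to 660.5 (median 416) in villi and from 19.8 to 178 (median 48.8) in crypts (7.26-fold lower). Xdh, of purine breakdown, was 3.54-fold lower, while Slc29a1, a nucleoside transporter, was 3.9-fold higher in crypts. The largest differences downwards belonged to Pmp22, Ido1 and Clca6. Pmp22, a membrane protein of cell junctions and myelin, ran from 48 to 113 (median 75) in villi and from 0.921 to 24 (median 6.21) in crypts (-3.61 ± 0.55, limma adjusted p = 0.000123). Ido1, which degrades tryptophan, ran from 22.3 to 42.3 (median 36.1) in villi and from 0.415 to 9.54 (median 2.55) in crypts (-3.44 ± 0.46), and Clca6 from 140 to 371 (median 237) and from 6.75 to 67 (median 23.9) (-3.34 ± 0.47). None of these overlapped. Sgk2, a kinase, and Gprc5a, a retinoic acid induced receptor, were also among the 12 largest, at 7.79-fold and 7.32-fold lower.

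Vdr, the vitamin D receptor, was not called. It ran from 124 to 208 (median 169) in villi and from 112 to 199 (median 166) in crypts, with broad overlap. The difference was -0.03 ± 0.17 with a 95% interval of -0.39 to 0.33 (limma adjusted p = 0.884), relative to the median gene; it was 0.51 without centring, 0.34 with columns scaled to equal sums, 0.37 with quantile normalization and 0.22 with centring on genes of 10 FPKM or more. Of 15 tested calcium and vitamin D genes 7 were lower in crypts and 1 higher (median -0.94). These counts were 8 and 2 without crypts 5 and 6, and 7 and 1 without villi 6 and crypts 5; 3 were higher without villi 5 and 2 without crypts 5. S100g, the calcium carrier calbindin-D9k, ran from 375 to 1200 (median 889) in villi and from 49.1 to 475 (median 220.2) in crypts. Of the crypt libraries 5 lay below all villi and crypts 6 overlapped villi 4 (-2.02 ± 0.47, limma adjusted p = 0.0024). Atp2b1, the calcium pump of the basolateral membrane, ran from 48 to 56.9 (median 51) in villi and from 16.8 to 36.7 (median 24.6) in crypts without overlap (2.09-fold lower). Slc30a10, a manganese exporter, was 4.09-fold lower. Without villi 6 and crypts 5 the differences of S100g and Slc30a10 were -1.88 and -2.03. Cldn2, a claudin that forms a cation pore, was the member higher in crypts, running from 13.1 to 39.2 (median 20.6) in villi and from 72.3 to 121 (median 104) in crypts (2.15 ± 0.24), whereas Cldn15, a sodium pore, was 1.91-fold lower.

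Of the most hormone-responsive genes, Cyp24a1, the enzyme that breaks down the hormone, and Trpv6, the apical calcium channel, did not reach the filter and were not tested. Cyp24a1 ran from 0.0685 to 77.5 (median 1.16) in villi and from 0.149 to 6 (median 0.385) in crypts. The high values were villi 6 and crypts 5, each alone in its group. Trpv6 ran from 0.284 to 2.04 (median 0.385) in villi and from 0.0587 to 0.672 (median 0.119) in crypts. Villi 6 was also the highest villus library for Trpv6, at 2.04, and for Slc30a10, at 74.8, where hormone-treated villi ran from 106.3 to 159.6. For S100g it was not the highest, at 1176 against 1200 in villi 3. For Slc30a10 crypts 5, at 18.34, was barely above crypts 6, at 18.07, and hormone-treated crypts ran from 41.33 to 59.25. Crypts 5 lay within the range of the other crypts for Trpv6, at 0.0739, and for S100g, at 182.8.

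Metal handling was mostly lower in crypts, 13 of 19 tested against 2 higher (median -0.70). Heph, the iron oxidase of iron export, was 2.99-fold and Slc11a2, the apical iron transporter, 2.02-fold lower in crypts. Tfrc, the transferrin receptor that takes up iron from plasma, was 4.47-fold higher, from 7.39 to 34.2 (median 19.5) in villi and from 54.1 to 103 (median 75.8) in crypts. Of 9 phosphate and magnesium genes 4 were lower and 1 higher (median -0.33, 0.21 without centring and 0.05 with columns scaled to equal sums). The 2 related transporters Slc41a2 and Slc41a1 had opposite signs, -1.55 ± 0.22 and 1.44 ± 0.16. Slc41a1 had a mean under 1 FPKM in villi and passed the filter through crypts, which partly set its sign.

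Of 26 electrolyte and fluid transport genes 14 were lower in crypts and 6 higher (median -0.69). Those higher included parts of the chloride secretion machinery. Slc12a2, the basolateral chloride loader, ran from 1.51 to 13.7 (median 5.55) in villi and from 48.5 to 84.8 (median 66.1) in crypts (12-fold, limma adjusted p = 1.81e-05). Kcnq1 and its partner Kcne3, which form a basolateral potassium channel, were 4.89-fold and 9.44-fold higher, and Kcne3 ran from 1.08 to 8.85 (median 5.13) in villi and from 26.3 to 73.3 (median 42.4) in crypts. Cftr, the apical chloride channel, ran from 18.8 to 29.8 (median 24.9) in villi and from 28.5 to 45.9 (median 35) in crypts. The groups overlapped, and it was 1.45-fold higher (limma adjusted p = 0.00489). Absorptive exchangers lay on the villus side: Slc9a3, the sodium-proton exchanger, was 2.41-fold and Slc26a6, an anion exchanger, 2.92-fold lower in crypts.

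Claudin and tight junction genes had 8 of 15 tested lower in crypts and 1 higher (median -0.55); 2 were higher without crypts 5 and 6, without crypts 5 alone or without villi 5. Cldn4, a sealing claudin, ran from 43.9 to 108 (median 58.2) in villi and from 5.24 to 17 (median 10.9) in crypts (5.9-fold lower). Keratin and desmosome genes had 5 higher and 6 lower of 15, and 4 and 5 without crypts 5 and 6. Both shares are near those of all genes (31.4% and 33.7%). Krt20, the keratin of mature epithelium, ran from 1236 to 2276 (median 1697) in villi and from 135 to 859 (median 294) in crypts (5.11-fold lower), while Pkp1, a desmosome protein, was 5.49-fold and Krt7 1.54-fold higher.

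Metabolic lists differed in evenness. Xenobiotic metabolism had 18 of 27 genes lower and none higher (median -1.02; 23 lower without crypts 5 and 6), Cyp3a13, a drug-oxidising cytochrome, by 3.71-fold. Of 10 tested retinoid genes 3 were lower (4 without crypts 5 and 6, 5 without villi 4), a share near that of all genes (33.7%). Among them was Rbp2, the cellular retinol carrier, which ran from 6128 to 9924 (median 7910) in villi and from 1058 to 6057 (median 2603) in crypts. Respiratory chain subunits had 13 of 28 lower and none higher, with a median of -0.32 that was 0.22 without centring and 0.05 with columns scaled to equal sums. The count of lower subunits depended on the libraries: it was 20 without crypts 5 and 6, 8 without villi 6 and crypts 5, 8 without villi 5, 7 without crypts 2 and 6 without crypts 3. Cycs, cytochrome c, was 1.91-fold lower. Fatty acid oxidation genes had 6 of 19 lower (7 without crypts 5 and 6) and 2 higher (median -0.21, which was 0.33 without centring, 0.17 with columns scaled to equal sums and 0.05 with centring on genes of 10 FPKM or more). The share lower is near that of all genes. Cpt1a, which admits fatty acids to mitochondria, was 2.14-fold higher in crypts. Cholesterol synthesis was near level, with 1 of 22 higher and 5 lower (median 0.02); 2 were higher without crypts 5 and 6 or without crypts 6 alone, and 4 without villi 4.

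Immune response genes lay on the villus side. Of 14 tested interferon stimulated genes 13 were lower in crypts and none higher (median -1.93, 14 without crypts 5 and 6), and all 11 tested MHC class I genes were lower (median -1.42). Stat2, which carries the interferon signal, ran from 18.9 to 26.7 (median 20.9) in villi and from 6.69 to 10 (median 7.9) in crypts. The groups were far apart relative to their spread (-1.39 ± 0.12, limma adjusted p = 1.38e-05). Oasl2 and Oas1a, antiviral proteins of the oligoadenylate synthetase family, were 4.04-fold and 2.71-fold lower in crypts. H2-D1, a classical class I heavy chain, ran from 647 to 1050 (median 852) in villi and from 190 to 554 (median 264) in crypts (2.82-fold lower), and Tapbp, which loads peptides on class I, was 2.64-fold lower. The related class I and Oas genes share sequence, so reads may be split between copies.

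The core of the interferon-stimulated response element (GAAA, any pair of bases, GAAA) occurred in 7 of 14 windows of the interferon genes (50.0%), 1 of 9 of the class I genes (11.1%), 2.98% of all windows and 2.65% of those of tested genes. Capitals mark 2 overlapping matches before the start of Oas1a (chr5:120907526-120907675, minus strand).
Oas1a: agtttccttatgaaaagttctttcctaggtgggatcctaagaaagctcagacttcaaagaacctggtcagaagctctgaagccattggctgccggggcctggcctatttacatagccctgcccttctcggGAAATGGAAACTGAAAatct

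MHC class II genes had 4 of 6 tested lower in crypts (median -2.07), but were uneven between libraries: 3 were lower without crypts 5 and 6, 2 without villi 2 or without crypts 4, and 6 without villi 4, without villi 6 or without villi 6 and crypts 5. H2-Aa ran from 5.48 to 468 (median 23.5) in villi, the highest being villi 5, and from 1.88 to 13.2 (median 5.44) in crypts, with overlap. Its difference of -2.39 ± 0.86 (limma adjusted p = 0.026) was not called without villi 2 (0.0507) or without crypts 4 (0.0563). H2-Ab1 ran from 21.9 to 480.3 (median 86.6) in villi and from 7.81 to 41 (median 18.9) in crypts (-2.18 ± 0.64, limma adjusted p = 0.0095). Lymphocyte markers were also lower in crypts, 8 of 9 tested with none higher (median -1.16), 7 without crypts 5 and 6. Cd3e, of the T cell receptor complex, was 2.19-fold and Gzma, a granzyme of cytotoxic lymphocytes, 2.52-fold lower. The 16 matched lymphocyte markers held 0.0212% to 0.0367% of summed FPKM in villi and 0.00847% to 0.0273% in crypts. Myeloid markers held 0.00182% to 0.00246% in villi and 0.00153% to 0.00287% in crypts, and stromal markers 0.00136% to 0.0019% and 0.00128% to 0.00254%. The part of these cells in the immune gene differences was not tested.

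Antimicrobial genes of the villus base showed no common direction, with 2 higher, 2 lower and 9 of 13 not called; 5 were lower without crypts 5 and 6 or without villi 3, and 4 without villi 6, without crypts 6 or without villi 6 and crypts 5. Dmbt1, a mucosal scavenger protein, ran from 51.3 to 547 (median 136) in villi and from 458 to 1353 (median 957) in crypts (5.77-fold higher, with overlap), and Pigr, which carries IgA across the epithelium, was 1.68-fold lower. Immediate early and stress genes had 11 of 19 lower in crypts and 5 higher (median -0.85), 12 and 4 without crypts 5 and 6; 3 were higher without villi 1 or 2 or without crypts 2, 3 or 4. Jun and Junb, transcription factors induced within minutes, were 3.06-fold and 2.81-fold lower, whereas Hsph1, a chaperone, was 3.18-fold higher. Of 15 clock genes 6 were lower and none higher (median -0.68), a share near that of all genes (33.7% lower). It was 7 without crypts 5 and 6 and 10 without villi 5, and 4 to 8 without any other single library. Of these genes Npas2 was 2.32-fold and Nr1d1 2.29-fold lower in crypts.

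Shares of each column's summed FPKM show the same contrast in the same libraries and lists. Dividing by the sum is the same scaling as columns scaled to equal sums, and a larger share of some genes lowers the shares of others. Paneth cell genes held 0.0415% to 0.722% of a column's summed FPKM in villi (median 0.193%) and 1.85% to 5.98% in crypts (median 3.63%). Ribosomal protein genes held 0.98% to 2.29% (median 1.66%) in villi and 4.77% to 7.98% (median 6.17%) in crypts. Crypt base stem cell genes were a small part, medians 0.00921% and 0.0675%, and so were mitosis genes, 0.0175% and 0.16%. In the other direction, lipid absorption genes held 6.27% to 10.1% (median 9.15%) in villi and 0.945% to 6.24% (median 3.13%) in crypts, and hydrolases 1.66% to 2.6% (median 2.19%) and 0.404% to 1.41% (median 1.11%). The crypt and villus ranges of these 6 lists did not overlap. Goblet cell genes held 2.16% to 2.71% in villi and 1.46% to 1.69% in crypts, also without overlap. Enteroendocrine genes held similar shares in both, 0.0943% to 0.144% in villi and 0.0993% to 0.159% in crypts.

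**Figure D4:**
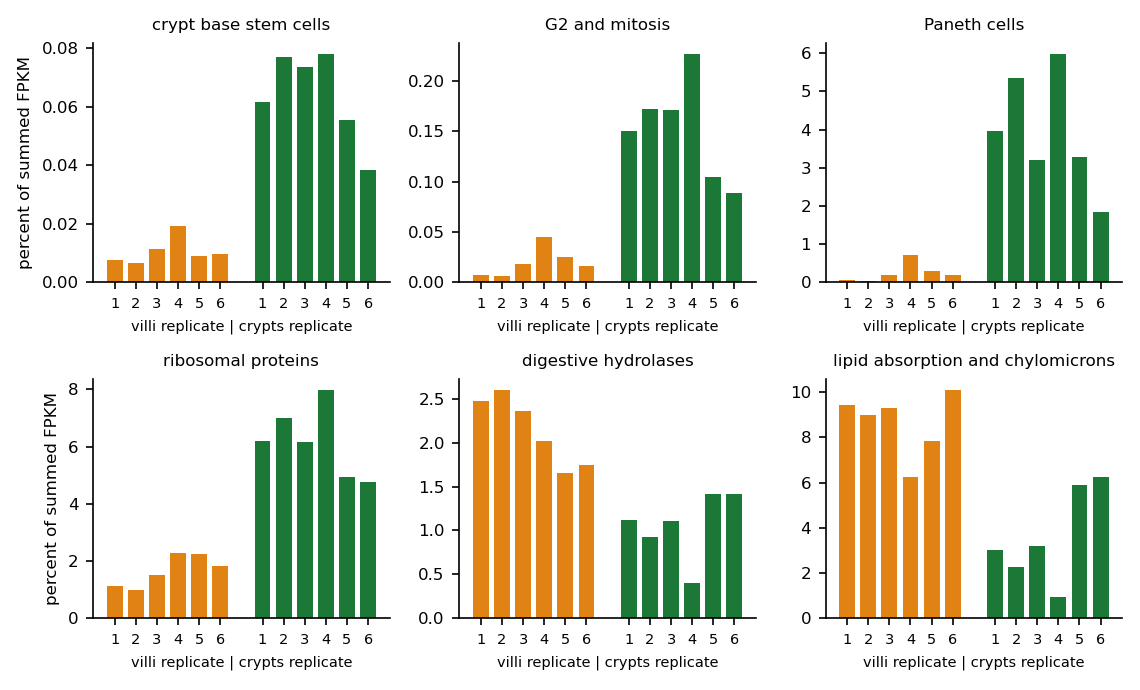
Percent of each column's summed FPKM (vertical axes, from 0) held by 6 gene lists in the 6 vehicle villus (orange) and 6 vehicle crypt (green) libraries, by replicate number. The villus and crypt bars of each list do not overlap, and crypts 5 and 6 stand closest to villi for lipid absorption and mitosis genes.

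The axis was measured again in libraries that shared none with the above, 7 villi and 6 crypts of hormone-treated mice. There 8019 of 10535 genes were called (76.1%), 3878 higher in crypts (36.8%) and 4141 lower (39.3%). Of the 6715 genes called in vehicle and tested in these libraries, 6698 had the same direction, 6441 were also called and none was called in the opposite direction. The authors' deposited table of that comparison held 9391 genes with an adjusted p under 0.05 of 15162 (61.9%), 4785 higher in crypts (31.6%) and 4606 lower (30.4%). List counts there were 15 of 16 stem cell genes higher, 29 of 29 mitosis genes, 18 of 18 hydrolases lower and 43 of 43 ribosomal protein genes higher.

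Whether the axis itself differed between vehicle and hormone was tested as a difference of differences over 25 libraries. Of 11074 genes 10 were called (0.0903%), and 783 had an unadjusted p under 0.05. S100g had a log2 difference between crypts and villi of -2.02 ± 0.47 (SE) in vehicle and 0.04 in hormone-treated libraries. The difference between these, -2.05 ± 0.52 (SE), did not pass the test over all genes (limma adjusted p = 0.327), and was -1.92 ± 0.56 without villi 6 and crypts 5 (limma adjusted p = 0.85), where 10 genes were again called, 9 of them the same. Vdr was -0.03 in vehicle and 0.13 in hormone-treated libraries. Lgr5 was 1.75 in hormone-treated libraries, Mki67 3.45, Lyz1 5.00, Klf4 -2.38 and Apoa4 -3.11, each with the sign it had in vehicle.

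**Figure D5:**
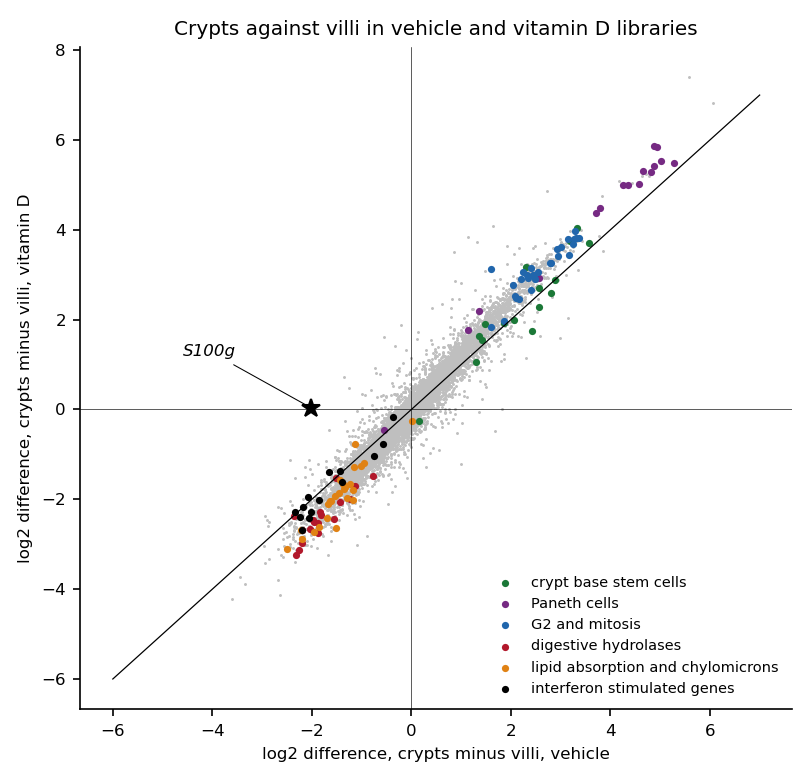
Log2 difference between crypts and villi in hormone-treated libraries (vertical axis) against that in vehicle libraries (horizontal axis) for the genes tested in both, with 6 lists coloured and the line of equal values. The star is S100g, at -2.02 and 0.04. The 2 comparisons share no library.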

How the data were processed

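RNA-seq values of 12 vehicle libraries, 6 of crypts and 6 of villi, were analysed, with 13 hormone-treated libraries of the same tissues for comparison; colon was not used here. Per the file headers, the authors deposited FPKM for 21441 genes in a separate table for each tissue. The submitters' processing notes name mm9 as genome build and DESeq2, DESeq 1.28.1 and kallisto 0.45.0 as tools, without their roles or order. For the hormone-treated comparison, per the file headers, the authors deposited a log2 fold change, a test statistic (a score) and a p-value with its adjusted form. The authors' deposited mean level per gene (a signal averaged over libraries) was set beside the FPKM to estimate depth: between 80.4% and 91.5% of values under 30 reads came out whole within 0.05. As this share was not nearly all, no count test was run.

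Here, log2(FPKM + 0.5) was centred per column and fitted with limma 3.58.1 (trended prior, no covariates) in R 4.3.3, with p-values adjusted by Benjamini and Hochberg over all genes tested; Python 3.11.15 made the tables. Genes entered with 1 FPKM or more in at least 6 libraries. Fold changes on this scale understate those of low genes, and genes near 0 in both groups come out lower in crypts. Fits were also run on simulated data in which few genes changed. As most genes were called here, that run does not test the choice of centring. Group overlap was judged on rescaled FPKM. Shares of summed FPKM are given with no test. Every pair of libraries within a group differed by more than sampling noise (chi-square per degree of freedom at least 12.0).

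Named genes are 30 fixed genes, the 12 largest called differences in each direction with an ordinary symbol and a mean of 2 FPKM or more in the higher group, and, per list, the called members with the smallest p (at most 4 in its main direction, 3 in the other); the text draws on these. Members and lists were chosen with earlier results of these data known. Promoter sequences are RefSeq, GRCm38.p6, matched by symbol. Alternatives covered pseudocounts, filters, scalings, a replicate block, subsets of libraries, a sex covariate, array weights and no trend.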

Additional observations from a re-analysis of the deposited data

Results flagged for a closer look

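In 318 groups of 6 libraries, the highest or lowest library was set apart when its gap to the nearest other library, as a share of the group's range, passed Dixon's critical value; 24 were, and chance gives about 1 in 20 groups. Villi 4 stood above the other villi in 10 cases. Its rescaled FPKM were 2.89 for Ephb2 (others 0.906 to 1.63), 10.8 for Mki67 (0.942 to 4.47), 16.3 for Sf3b3 (9.98 to 12.1), 9.29 for Spdef (5.51 to 6.66) and 12.4 for Creb3l1 (4.68 to 7.38). They were also 1.32 for Smo (0.0593 to 0.527), 1.63 for Slc7a5 (0.493 to 0.804), 98.7 for Slc11a2 (43.2 to 59.4) and 23.4 for Kcnq1 (8.94 to 13.3), and crypt base stem cell genes held 0.0194% of its summed FPKM (0.00645% to 0.0113%). Slc11a2 differs from the rest in being lower in crypts.

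Villi 5 stood high for the growth factors Areg at 57.5 (others 11.8 to 22.7) and Hbegf at 14.2 (6.01 to 8.64), for Espn at 324.0 (209 to 245), and for the class II genes H2-Aa at 468.0 (5.48 to 49.0) and H2-Ab1 at 480.0 (21.9 to 136). Cyp24a1 was 77.5 in villi 6 (others 0.0685 to 1.56) and 6.0 in crypts 5 (0.149 to 0.758). Blood and pancreas markers held 0.0013% in villi 6 (0.000733% to 0.000926%). Crypts 4 was low for Sis at 657.0 (1430 to 1670) and high for Slc29a1 at 12.6 (7.0 to 9.08) and Krt7 at 50.8 (33.5 to 39.7). Ctnnb1 was 237.0 in crypts 6 (187 to 201), Trpv6 0.672 in crypts 3 (0.0587 to 0.148) and Gzma 74.1 in crypts 2 (31.3 to 43.0).

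The crypt to villus difference itself differed between vehicle and hormone-treated libraries in 10 genes by limma's test of the difference of differences. Wfdc16 had the largest, -2.41 ± 0.35 (SE; limma adjusted p = 0.00124), with an axis of 1.31 in vehicle and 3.73 with hormone. The vehicle axis was also lower for 5033404E19Rik (-1.75), Fam20c (-1.72), Trim47 (-1.62), Atoh8 (-1.45), A430107O13Rik (-1.39), Fhl2 (-1.16) and Cnnm1 (-1.15). It was higher for Ppl (0.97) and Zfp961 (0.59). In vehicle, 7 of these had a mean under 1 FPKM in villi (5033404E19Rik was listed at 0 there). Fhl2 had deposited means, before rescaling, of 17.6 FPKM in villi and 21.2 in crypts. Its centred log2 difference in vehicle was -0.29, lower in crypts. These 10 genes were chosen by their values.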

How the results depend on the processing

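Of the 6789 calls, 3272 higher and 3517 lower in crypts, the split moved with the scaling and the total most with the filter on low genes. Higher and lower calls numbered 5945 and 1039 with columns as deposited, 4895 and 1713 scaled to equal sums, 4377 and 2297 centred on genes of 10 FPKM or more, and 246 and 9185 centred on ribosomal protein genes. With no filter 12002 genes were called, 8458 of them lower, and at a mean FPKM of 5 or more 2104 were higher. The 0.5 was added before centring, and the column centres had medians of 3.45 in villi and 3.968 in crypts. A gene near 0 in every library therefore comes out lower in crypts by about this gap. In the fit over 25 libraries 5033404E19Rik, with vehicle means of 0 FPKM in villi and 0.0184 in crypts, had -0.49. How many of the 8458 are of this kind was not counted. Leaving out each library gave 3065 to 3352 higher, 3264 to 3553 lower and 6363 to 6905 in all. The replicate block gave 7199 calls; the numbers share no stated source, 3 of 6 same-numbered pairs correlated above 0.1 and 5 of 12 libraries correlated best with their own number, so the block is not read as pairing. Chosen after seeing the data, scaling before the pseudocount gave 3402 and 3441, villi and crypts 1 to 4 with replicate block 3746 and 3865, and all but villi 6 and crypts 5 3232 and 3262. Of the named genes, 22 changed sign when centred on ribosomal protein genes: Ephb2 -0.24, Lgr4 -0.89, Cdkn2c -0.97, Sf3b3 -0.21, Cd24a -0.36, Spdef -1.0, Creb3l1 -0.67, Gcg -0.22, Chga -1.43, Dclk1 -1.54, Pou2f3 -1.22, Notch1 -0.05, Atoh1 -1.64, Bmp7 -0.12, Cdx1 -1.1, Nr5a2 -0.17, Slc41a1 -0.29, Cftr -1.19, Krt7 -1.1, Cpt1a -0.62, Hsph1 -0.05 and Itga2 -0.73. As deposited, 5 did: Ctnnb1 0.09, Muc2 0.11, Dll1 0.16, Efnb1 0.36 and Vdr 0.51. Scaled to equal sums, Efnb1 was 0.2 and Vdr 0.34; with quantile normalization Dclk1 was -0.15, Efnb1 0.03 and Vdr 0.37; centred on genes of 10 FPKM or more Efnb1 was 0.08 and Vdr 0.22. Vdr, not called, was 0.02, 0.04 and 0.07 without villi 1, villi 3 or crypts 4 (range -0.11 to 0.07). No change of sign came from the pseudocounts, filters or block. The cause was not tested. Separate scaling of the tables limits the direction of small differences, and low genes carry few reads.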

Other observations

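Genes that anchor cells to the basement membrane differed by receptor. Of 15 members 10 were tested, 3 were higher in crypts and 3 lower, with 2 lower without crypts 5 and 6, against 31.4% and 33.7% of all genes. Their median was -0.21, but 0.32 without centring, 0.17 with columns scaled to equal sums and 0.04 with centring on genes of 10 FPKM or more. Itga2, a collagen receptor subunit, ran from 2.04 to 3.12 rescaled FPKM (median 2.18) in villi and from 3.97 to 6.87 (median 5.93) in crypts, with no overlap. Its log2 difference was 1.00 ± 0.16 (SE; limma adjusted p = 0.000144), and -0.73 with centring on ribosomal protein genes. Itgb4, the laminin receptor subunit of hemidesmosomes, ran from 37.4 to 50.6 (median 46.6) in villi and from 18.1 to 27.3 (median 23.4) in crypts, also with no overlap (-0.96 ± 0.11, limma adjusted p = 3.2e-05). Of 6 tested M cell genes (median 0.11, -0.11 with quantile normalization and -1.61 with centring on ribosomal protein genes) 1 was called, the chemokine Ccl9, which ran from 2.11 to 4.76 (median 2.94) in villi and from 8.19 to 19.4 (median 12.7) in crypts (1.82 ± 0.20, limma adjusted p = 2.2e-05), a call lost with that centring (0.1, limma adjusted p = 0.663).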
